A study of Mus musculus with 24 samples.

Results

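Fatty acid uptake and oxidation were followed through 10 genes, picked by symbol from the deposited tables of estimated counts and transcripts per 1000000 (TPM), which list 56941 genes. They are Cd36, Fabp3, Angptl4, Cpt1a, Cpt1b, Cpt2, Acadm, Hadha, Ucp2, and Ucp3, and all 10 passed the filter on low counts, which kept 13315 genes. The rule is a list of gene symbols and uses no measured value, but the list was chosen with earlier results of these data known. The cells were C2C12, a mouse myoblast line that fuses into contractile myotubes, of the genotype ChR2::tdTomato in every group. ChR2 is a channel opened by blue light, so that a light pulse triggers a twitch, and tdTomato is a red fluorescent tag. The cells were cultured on a fibrin gel, differentiated for about 2 weeks in horse serum with IGF-1, and exposed each day to a 60-min light regimen at 1, 4, or 10 Hz, while unstimulated controls received none. Each of the 4 groups had 6 libraries of whole-culture RNA, and tissues of every group also twitched spontaneously, as the study describes.

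Long-chain fatty acids enter a muscle cell with the help of CD36 at the membrane and are carried through the cytosol by FABP3. CPT1 and CPT2 pass them into the mitochondrion as carnitine esters, where ACADM and the trifunctional protein that holds HADHA shorten the chain. ANGPTL4 is a secreted inhibitor of lipoprotein lipase, and UCP2 and UCP3 are carriers of the inner mitochondrial membrane. Many of these genes are classic targets of the fatty acid receptors of the PPAR family and respond to fasting and exercise in muscle.

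Optical stimulation at 1 and 4 Hz went with lower RNA of Angptl4, Ucp2, and Ucp3, and at 4 Hz also of Cpt1a, the gene for the rate-limiting step of mitochondrial import. Cd36 and the dehydrogenase Acadm were higher at 4 Hz, and Fabp3, Cpt1b, Cpt2, and Hadha did not pass the edgeR test against control at either frequency, though some other settings called Hadha, Fabp3, and Cpt2, as given with their values. At 10 Hz no gene of the 10 passed. Levels are given in counts per 1000000 (CPM) scaled by TMM, and each comparison used the quasi-likelihood test of edgeR over all 24 libraries with the Benjamini-Hochberg adjusted p (p_adj) over 13315 genes. A gene was called at p_adj under 0.05. At 1 Hz, 3 of the 10 genes were called against 37.3% of all genes tested, and at 4 Hz 6 of the 10 against 51.4%. For 1, 4, and 10 Hz in turn, the 10 genes had a median log2(fold change) of -0.08, -0.14, and -0.10, and all genes tested one of 0.04, 0.06, and 0.01.

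With an absolute log2(fold change) over 0.5 asked for as well, 2 of the 10 genes remained at 1 Hz and 4 at 4 Hz, each lower than in controls. Of all genes tested, 7.74% at 1 Hz and 12.3% at 4 Hz were lower by that rule. Libraries held 8052369 to 18159144 estimated counts, and the biological coefficient of variation was 14.8%. In 4 libraries, transcripts of the mitochondrial genome took a larger share of counts than in the rest, at 3.97% in 1 Hz replicate 4, 4.87% in 1 Hz replicate 6, 8.90% in 4 Hz replicate 3, and 4.34% in 4 Hz replicate 6, and the other 20 libraries had 0.545% to 2.72%. The 12 myotube markers checked were above a mean of 1 TPM in each group although the labels name the cells myoblasts. The myogenic factors among them were lower at the same frequencies as the genes that fell, Myog with a mean of 648 TPM in controls and 221, 188, and 555 at 1, 4, and 10 Hz, and Myod1 with 193, 63.5, 46.0, and 168, below every control in each library at 1 and 4 Hz. The other 10 markers stood at 77.6% to 105% of the control mean at 1 Hz, 83.6% to 117% at 4 Hz, and 75.6% to 126% at 10 Hz, and their part in the results was not tested. The defining adipocyte markers Adipoq, Plin1, and Fabp4 did not pass the filter on low counts and the summed TPM of 8 adipocyte markers ran from 1.79 to 5.17. Summed TPM was at most 0.961 for 6 endothelial markers, lay between 55.2 and 102 for 6 macrophage markers, of which only Cd68 passed the filter, and between 298 and 593 for 6 fibroblast markers. In RNA of a whole culture, fewer cells of a type and less RNA per cell cannot be told apart.

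**Figure D1:**
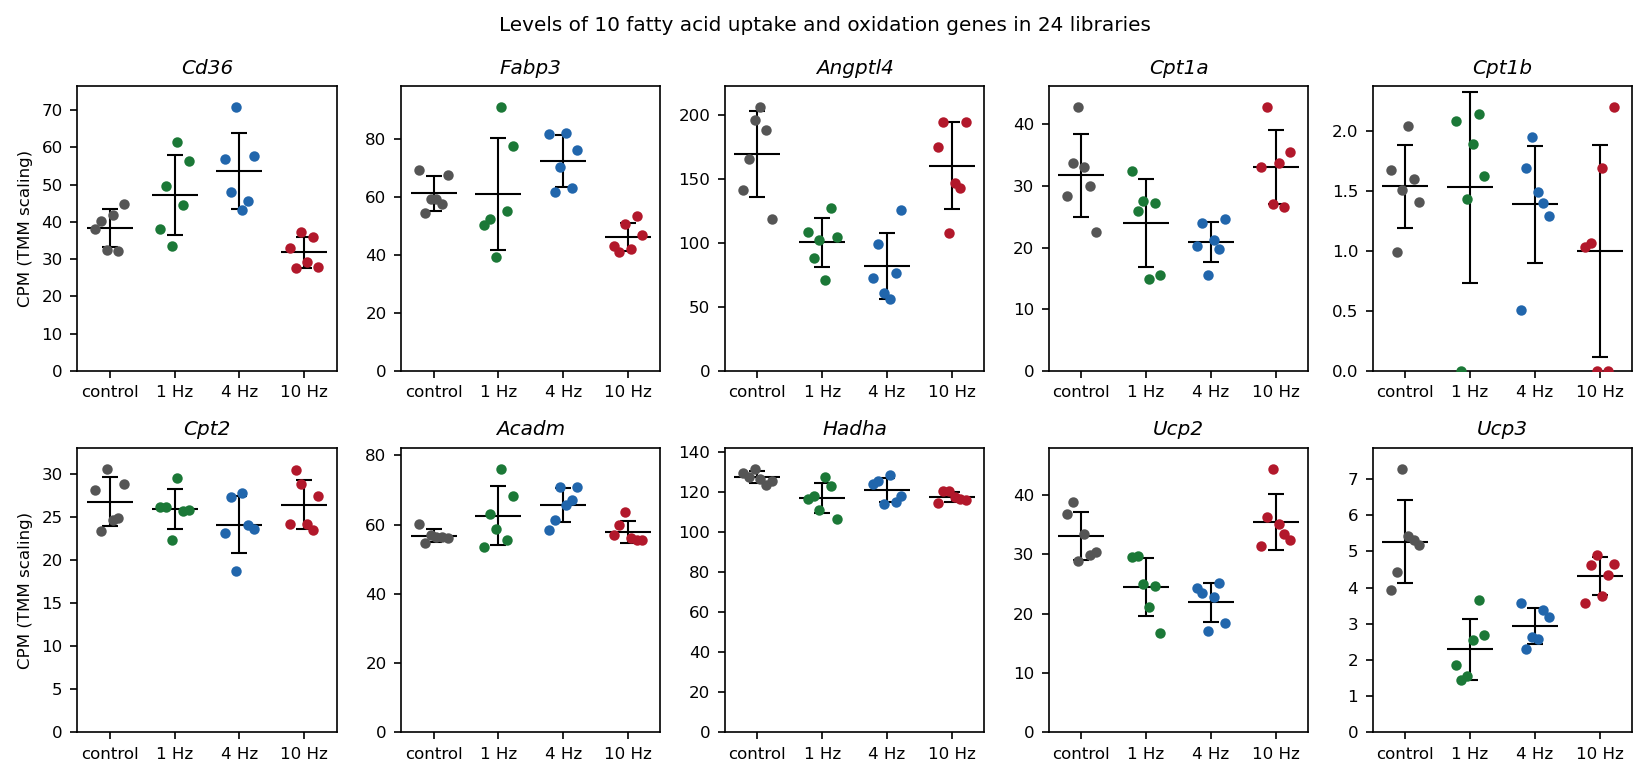
CPM of each of the 10 genes (y axis, starting at 0) in the 6 libraries of the control, 1 Hz, 4 Hz, and 10 Hz groups (x axis). Points are libraries, and bars give the mean ± SD of 6. For Ucp3, each library at 1 and 4 Hz lies below the lowest control at 3.94 CPM, while for Cpt2 the groups overlap.

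Ucp2 and Ucp3 are neighbours on chromosome 7, and Cpt1a lies on chromosome 19. The 250 bases ahead of the annotated start are shown for these 3 genes, which fell together at 4 Hz, and for Cd36, which rose. They were picked by these changes, and the windows of Cpt2, Fabp3, Acadm, and Hadha were searched but are not printed. The sequences are from RefSeq on GRCm38.p6, where 8 of the 10 genes were matched (not Cpt1b and Angptl4). Capitals mark AGGTCA, a core hexamer bound by PPARs and other nuclear receptors, and CAGCTG, an E-box bound by the myogenic factors, on either strand. Intervals are chr19:3323051-3323300 on the plus strand for Cpt1a, chr7:100493108-100493357 on the plus strand for Ucp2, chr7:100472741-100472990 on the plus strand for Ucp3, and chr5:17835897-17836146 on the minus strand for Cd36.
Cpt1a: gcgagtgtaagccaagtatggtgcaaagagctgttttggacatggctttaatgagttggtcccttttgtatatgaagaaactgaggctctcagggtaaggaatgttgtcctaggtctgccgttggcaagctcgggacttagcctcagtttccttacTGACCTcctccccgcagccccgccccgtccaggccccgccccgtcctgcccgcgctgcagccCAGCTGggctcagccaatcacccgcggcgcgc
Ucp2: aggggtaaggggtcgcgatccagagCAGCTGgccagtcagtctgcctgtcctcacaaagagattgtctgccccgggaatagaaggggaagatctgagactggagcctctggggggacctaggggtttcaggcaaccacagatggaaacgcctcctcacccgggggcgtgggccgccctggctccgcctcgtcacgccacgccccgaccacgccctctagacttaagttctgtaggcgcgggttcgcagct
Ucp3: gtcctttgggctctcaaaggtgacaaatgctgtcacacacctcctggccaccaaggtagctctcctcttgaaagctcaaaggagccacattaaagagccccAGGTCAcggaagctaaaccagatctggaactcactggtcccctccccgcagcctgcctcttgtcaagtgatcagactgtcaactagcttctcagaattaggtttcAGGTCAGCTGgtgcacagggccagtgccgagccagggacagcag
Cd36: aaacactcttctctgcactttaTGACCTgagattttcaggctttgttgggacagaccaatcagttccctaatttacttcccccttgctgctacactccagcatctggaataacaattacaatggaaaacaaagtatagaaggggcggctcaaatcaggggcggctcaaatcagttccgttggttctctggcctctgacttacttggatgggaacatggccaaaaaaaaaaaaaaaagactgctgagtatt

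CAGCTG was in 3 of the 8 windows, those of Cpt1a, Ucp2, and Ucp3, and in 13.0% of 32851 RefSeq windows of the same length. Its first base lay 32 bases before the start in Cpt1a, 225 in Ucp2, and 40 in Ucp3. AGGTCA was in 4 of the 8 windows, those of Cpt1a, Cd36, Ucp3, and Acadm, and in 14.0% of all windows. In Ucp3 the AGGTCA that begins 44 bases before the start overlaps the CAGCTG. The core motif of MEF2, CTANNNNTAG, was in 0 of the 8 windows and in 3.2% of all. These matches describe the sequence and are not sites of measured binding, and their link to the changes in RNA was not tested.

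Ucp3, the uncoupling protein typical of skeletal muscle, had the largest fold change of the called genes (ENSMUSG00000032942, GRCm39 chromosome 7, 100122136 to 100135976, plus strand). Its level ran from 3.94 to 7.29 CPM in controls (median 5.24), from 1.46 to 3.67 at 1 Hz (median 2.21), from 2.30 to 3.56 at 4 Hz (median 2.92), and from 3.58 to 4.89 at 10 Hz (median 4.50). Each library at 1 and 4 Hz lay below every control, while 10 Hz overlapped the controls. log2(fold change) was -1.17 (SE 0.186, p_adj = 2.92e-05) at 1 Hz, -0.83 (SE 0.185, p_adj = 6.06e-04) at 4 Hz, and -0.29 (SE 0.176, p_adj = 0.73) at 10 Hz. Groups did not overlap, in either direction, for 14.1% of all genes tested at 1 Hz and 27.6% at 4 Hz. The counts behind Ucp3 are small, between 14 and 85 in a library.

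Ucp2, the more widely expressed uncoupling protein, is on the same strand with 6078 bases between the end of Ucp3 and its start (ENSMUSG00000033685, GRCm39 chromosome 7, 100142055 to 100151227). Controls had 28.9 to 38.9 CPM (median 31.9), 1 Hz 16.8 to 29.7 (median 24.8), 4 Hz 17.1 to 25.2 (median 23.2), and 10 Hz 31.5 to 44.5 (median 34.3). At 4 Hz the 6 libraries were below every control, at 1 Hz 4 of 6 were, and at 10 Hz 1 library was above every control. Ucp2 fell by 0.44 on the log2 scale at 1 Hz (SE 0.123, p_adj = 0.0068 in edgeR) and by 0.60 at 4 Hz (SE 0.125, p_adj = 3.48e-04), and it was 0.10 at 10 Hz (SE 0.122, p_adj = 0.93). Ucp2 made up 91.62% ± 2.52 (SD, n = 6) of the summed TPM of the pair in controls, and 93.51% ± 3.39, 91.34% ± 1.61, and 93.14% ± 1.32 at 1, 4, and 10 Hz. The share did not pass the test at any frequency (exact permutation test, two-sided, p = 0.288, 0.835, and 0.227, adjusted over 6 tests to 0.432, 0.835, and 0.432; the smallest p this design allows is 0.00216).

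Angptl4, the inhibitor of lipoprotein lipase, fell at both 1 and 4 Hz (ENSMUSG00000002289, GRCm39 chromosome 17, 33992724 to 34000804, minus strand). It ran from 119 to 206.5 CPM in controls (median 177), from 71.0 to 128 at 1 Hz (median 104), from 56.4 to 126 at 4 Hz (median 74.7), and from 108 to 195 at 10 Hz (median 161). At both 1 and 4 Hz, 5 of 6 libraries were below every control, and at 10 Hz 1 of 6 was. The log2(fold change) in edgeR was -0.76 (SE 0.185, p_adj = 0.00296) at 1 Hz, -1.04 (SE 0.187, p_adj = 8.95e-05) at 4 Hz, and -0.08 (SE 0.184, p_adj = 0.98) at 10 Hz.

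Among the libraries of a group, Angptl4 was lower where RNAs without a poly(A) tail, such as Rn7sk and Rmrp, were higher. With group means subtracted, log2 CPM of Angptl4 and the log2 of their summed TPM had a Pearson r of -0.747 (permutation p = 0.00012, adjusted over 30 relations to 0.0036) and a Spearman rho of -0.726 (permutation p = 0.00019, adjusted to 0.0057) over 24 libraries. Without the 2 libraries farthest from the median of those RNAs, r was -0.714. The summed TPM of these RNAs was 24.5 to 92.1 in controls, and 71.2 to 304.5, 74.2 to 487, and 35.5 to 135 at 1, 4, and 10 Hz, and the labels state that some low-input samples, not named, were made by ribodepletion and not by poly(A) selection. Their part in the result for Angptl4 was not tested.

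Cpt1a and Cpt1b encode the liver-type and muscle-type forms of the enzyme that commits fatty acids to mitochondrial import. Cpt1a (ENSMUSG00000024900, GRCm39 chromosome 19, 3371853 to 3437996, plus strand) ran from 22.5 to 42.7 CPM in controls (median 31.5), from 14.9 to 32.5 at 1 Hz (median 26.6), from 15.6 to 24.6 at 4 Hz (median 20.8), and from 26.6 to 42.8 at 10 Hz (median 33.3). At 4 Hz 4 of 6 libraries were below every control, and at 1 Hz 2 of 6. Cpt1a fell by 0.59 on the log2 scale at 4 Hz (SE 0.173, p_adj = 0.00625), and its log2(fold change) was -0.42 at 1 Hz (SE 0.171, p_adj = 0.0565) and 0.06 at 10 Hz (SE 0.169, p_adj = 0.98). At 1 Hz the 2 lowest libraries were replicates 4 and 6, both of a high mitochondrial share, and without the 4 libraries of that kind the value was -0.16 (p_adj = 0.422). It passed without 1 Hz replicate 1 (p_adj = 0.0197), 1 Hz replicate 3 (0.0477), 1 Hz replicate 5 (0.0463), or control replicate 6 (0.0269), and with a strict filter of 50 counts in 6 libraries (0.0451).

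Cpt1b (ENSMUSG00000078937, GRCm39 chromosome 15, 89300606 to 89310239, minus strand), the form that adult muscle relies on, was near the limit of detection in these tissues. It had 0 to 32 estimated counts in a library, ran from 0.992 to 2.04 CPM in controls and from 0 to 2.20 at 10 Hz, and was listed at 0 in 1 Hz replicate 2 and in 10 Hz replicates 3 and 5. In those 3 libraries 3 counts would stand for 0.292, 0.334, and 0.335 CPM. These values give the scale and not an upper limit, since the listed 0 is an estimate. Its log2(fold change) of 0.01 (95% interval -1.01 to 1.02), -0.14 (-1.20 to 0.91), and -0.55 (-1.63 to 0.53) at 1, 4, and 10 Hz had the widest intervals of the 10 genes. The exons of Cpt1b share 2744 bases with Gm44502 on the same strand, so its counts are uncertain. Per length, Cpt1a made up 91.58% ± 2.40 (SD, n = 6) of the summed TPM of both forms in controls. At 1, 4, and 10 Hz that share was 88.67% ± 7.03, 87.17% ± 3.71, and 94.62% ± 5.79. The lower share at 4 Hz did not pass after adjustment over 6 tests (exact permutation test, two-sided, p = 0.0476, adjusted 0.286).

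Cpt2, the carnitine palmitoyltransferase of the inner membrane, differed little in CPM among the groups (ENSMUSG00000028607, GRCm39 chromosome 4, 107751473 to 107780812, minus strand). The mean was 26.7 ± 2.83 CPM in controls and 25.9 ± 2.29, 24.1 ± 3.29, and 26.4 ± 2.88 at 1, 4, and 10 Hz (SD, n = 6). The log2(fold change) at 4 Hz was -0.14 (95% interval -0.34 to 0.05, p_adj = 0.21 in edgeR). The interval of Cpt1a at 4 Hz, -0.95 to -0.24, overlaps it. In limma, Cpt2 was called lower at 4 Hz on log2(TPM + 1) (-0.47, p_adj = 0.0275) and on log2(TPM + 0.1) (-0.50, p_adj = 0.0273).

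Cd36, the membrane receptor for long-chain fatty acids, rose at 4 Hz (ENSMUSG00000002944, GRCm39 chromosome 5, 17986432 to 18094067, minus strand). Controls ran from 32.3 to 44.9 CPM (median 39.1), 1 Hz from 33.4 to 61.4 (median 47.0), 4 Hz from 43.3 to 70.8 (median 52.5), and 10 Hz from 27.7 to 37.2 (median 31.1). At 4 Hz 5 of 6 libraries were above every control, and at 1 Hz 3 of 6. log2(fold change) was 0.49 (SE 0.134, p_adj = 0.00408 in edgeR) at 4 Hz, 0.31 (SE 0.134, p_adj = 0.0716) at 1 Hz, and -0.27 (SE 0.136, p_adj = 0.64) at 10 Hz. At 1 Hz the 2 highest libraries were again replicates 4 and 6, and without the 4 libraries of a high mitochondrial share the value was 0.13 (p_adj = 0.442). It passed without 1 Hz replicate 1 (p_adj = 0.0393) or 1 Hz replicate 3 (p_adj = 0.0281).

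Fabp3, the heart-type and muscle-type fatty acid binding protein, was spread most at 1 Hz (ENSMUSG00000028773, GRCm39 chromosome 4, 130202388 to 130209259, plus strand). It ran from 54.3 to 69.4 CPM in controls (median 59.3), from 39.3 to 90.9 at 1 Hz (median 53.8), from 61.5 to 82.1 at 4 Hz (median 73.2), and from 41.1 to 53.3 at 10 Hz (median 44.8). At 1 Hz 2 libraries were above every control and 3 below, while at 10 Hz the 6 libraries were below every control. The log2(fold change) was 0.00 (SE 0.139, p_adj = 0.997) at 1 Hz, 0.24 (SE 0.139, p_adj = 0.14) at 4 Hz, and -0.41 (SE 0.141, unadjusted p = 0.00743, p_adj = 0.40) at 10 Hz. With only the 2 groups compared in the edgeR fit, p_adj was 0.0358 at 10 Hz and 0.0444 at 4 Hz. Fabp3 counts are uncertain. Its exons overlap Gm10570 and Zcchc17 on the opposite strand, and 23 of 24 libraries had an estimated count that was not whole. Fabp3-ps1, a processed pseudogene, held up to 24.2 estimated counts in a library. The source of the fractions was not tested.

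Acadm, the medium-chain acyl-CoA dehydrogenase of the first oxidation step (ENSMUSG00000062908, GRCm39 chromosome 3, 153627989 to 153650317, minus strand), ran from 54.7 to 60.1 CPM in controls (median 56.5), from 53.5 to 76.2 at 1 Hz (median 61.0), from 58.5 to 70.9 at 4 Hz (median 66.3), and from 55.5 to 63.6 at 10 Hz (median 56.6). It was above every control in 5 of 6 libraries at 4 Hz, and 1 Hz and 10 Hz overlapped the controls. Its log2(fold change) of 0.21 at 4 Hz (SE 0.0756, p_adj = 0.0229 in edgeR) was the smallest of those called and was no longer called when any of control replicates 4 and 5 and 4 Hz replicates 3, 4, 5, and 6 was left out (p_adj = 0.0531 to 0.0959). At 1 and 10 Hz it was 0.14 (p_adj = 0.139) and 0.03 (p_adj = 0.98).

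Hadha, the alpha subunit of the trifunctional protein (ENSMUSG00000025745, GRCm39 chromosome 5, 30323302 to 30360187, minus strand), had the lowest coefficient of variation of the 10 genes in each group, from 2.01% to 6.46%. It ran from 123.7 to 131.9 CPM in controls (median 127), from 106.9 to 127.7 at 1 Hz (median 117), from 114 to 128.9 at 4 Hz (median 121), and from 114.7 to 120.6 at 10 Hz (median 117). Each library at 10 Hz was below every control and 5 of 6 at 1 Hz, yet the log2(fold change) was small, at -0.12 (SE 0.0524, p_adj = 0.0704) at 1 Hz, -0.07 (SE 0.0525, p_adj = 0.24) at 4 Hz, and -0.12 (SE 0.0524, unadjusted p = 0.0367, p_adj = 0.58) at 10 Hz. At 1 Hz Hadha passed with the size factors of DESeq2 (RLE) in edgeR (p_adj = 0.0481), with the strict filter (0.0422), in DESeq2 (-0.13, 0.00806), on log2(TPM + 1) (-0.36, 0.0344), and without 1 Hz replicate 4 (-0.17, 0.0192), and at 4 Hz it passed in DESeq2 (-0.10, 0.0407) and on log2(TPM + 1) (-0.42, 0.00748). Fabp3 and Hadha were the 2 of 10 genes whose 10 Hz libraries did not overlap the controls, against 1.64% of all genes tested. They were also the 2 with an unadjusted p under 0.05 at 10 Hz, against 8.07% of all genes, and 0 of the 10 passed the adjusted p, against 0.0376%.

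**Figure D2:**
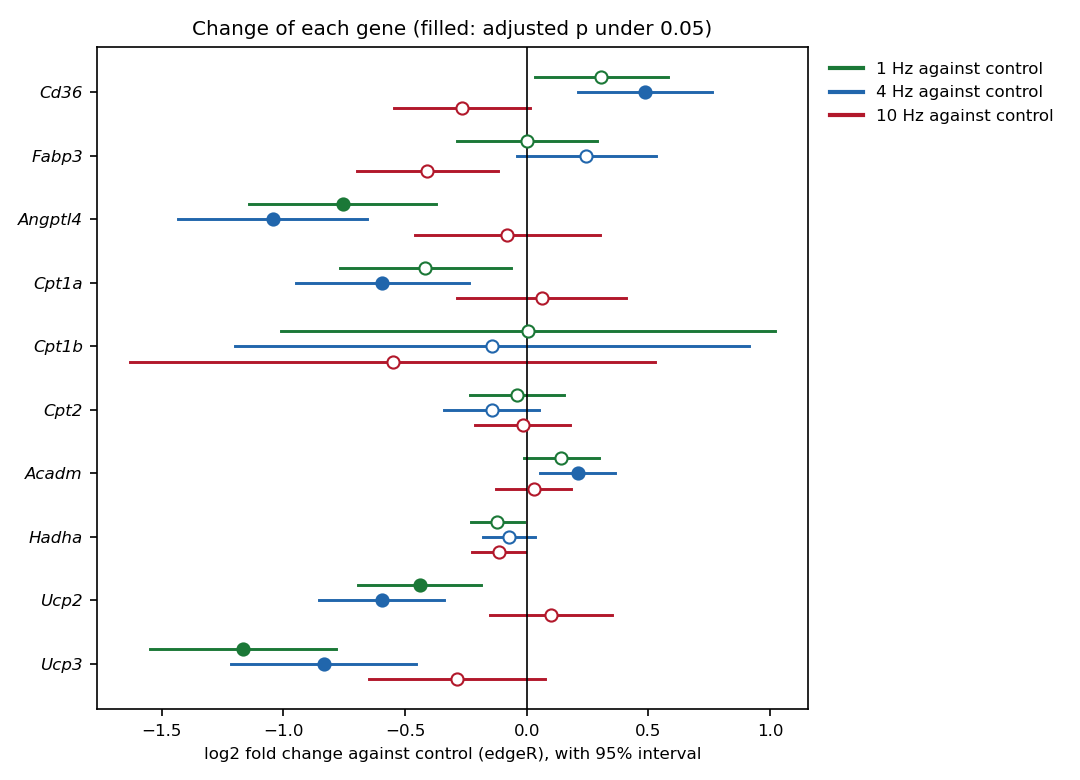
log2(fold change) of each gene (rows) against control at 1, 4, and 10 Hz, with 95% intervals from edgeR over 24 libraries. Filled points passed at p_adj under 0.05. Ucp3, Ucp2, and Angptl4 lie below 0 at 1 and 4 Hz, Cd36 and Acadm above 0 at 4 Hz, and the intervals of Cpt1b are the widest.

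The order of the genes by mean TPM, which accounts for transcript length, was led in controls by Fabp3 (147 ± 12.9, SD, n = 6) and Angptl4 (140.4 ± 30.9), which differed by less than the SD of Angptl4. Hadha (74.6 ± 4.50), Acadm (54.7 ± 8.15), Ucp2 (40.0 ± 5.86), Cd36 (28.5 ± 2.32), Cpt2 (19.5 ± 3.40), and Cpt1a (11.6 ± 2.76) followed, and Ucp3 (3.58 ± 0.855) and Cpt1b (1.02 ± 0.214) were last. At 4 Hz, Angptl4 stood at 55.2 ± 21.4 TPM, beside Acadm at 58.8 ± 13.2 and Hadha at 56.3 ± 9.80, and no pair of these 3 differed by more than their spread.

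The scale mattered for the genes that were higher. On TPM the median over all genes was lower, with a log2(fold change) of -0.14 at 1 Hz, -0.21 at 4 Hz, and -0.01 at 10 Hz in limma on log2(TPM + 1). On that scale 0 of the 10 genes were higher and 4 lower at 1 Hz (Angptl4, Ucp2, Ucp3, and Hadha), and 0 higher and 6 lower at 4 Hz (these 4, Cpt1a, and Cpt2). Of all genes on that scale, 3.58% were higher and 21.9% lower at 1 Hz, and 5.83% and 35.9% at 4 Hz. Cd36 and Acadm had a log2 difference of 0.16 (p_adj = 0.27) and 0.08 (p_adj = 0.64) at 4 Hz, or 0.37 and 0.29 above the median of all genes. Cpt1a, Angptl4, Ucp2, and Ucp3 stood -0.60, -1.18, -0.81, and -0.48 from that median.

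Genes of different annotated length also moved differently at 1 and 4 Hz. Length here was the union of all annotated exons of a gene, 4497 bases for Angptl4 and 12624 for Cd36. It is not the length of the transcripts expressed, and by that length the order of the genes can differ. With the genes tested cut into 3 classes of equal size by length, the shortest class had a median log2(fold change) of 0.16 at 1 Hz and 0.23 at 4 Hz, and the longest class -0.04 and -0.06 (edgeR, TMM). By this exon length, of the genes that fell, Angptl4 was in the shortest class, Ucp2 and Ucp3 in the middle class, and Cpt1a in the longest. Of those that rose, Cd36 was in the longest class and Acadm in the middle. The part of length in these results was not tested.

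Frequencies were also compared with each other. No gene of the 10 passed between 4 and 1 Hz (0 at an unadjusted p under 0.05), where edgeR called 0% of all genes and 11% had an unadjusted p under 0.05. Intervals of the difference still allowed sizable changes, such as -0.08 to 0.74 for Ucp3 and -0.67 to 0.10 for Angptl4 on the log2 scale. Between 10 and 4 Hz, Cpt1a (0.65, p_adj = 0.00383), Angptl4 (0.96, p_adj = 2.97e-04), Ucp2 (0.70, p_adj = 1e-04), and Ucp3 (0.55, p_adj = 0.0209) were higher at 10 Hz, and Cd36 (-0.75, p_adj = 1.08e-04) and Fabp3 (-0.65, p_adj = 7.05e-04) were lower. The call of Ucp3 ended without 4 Hz replicate 2 (0.48, p_adj = 0.0502). These 6 of 10 compare with 46.3% of all genes. The groups did not overlap for 5 of the 10, namely Cpt1a, Ucp2, Ucp3, Cd36, and Fabp3, against 18.9% of all genes.

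Between 10 and 1 Hz the same 6 genes passed in the same directions, against 27.9% of all genes. log2 differences were 0.48 for Cpt1a (p_adj = 0.0405), 0.68 for Angptl4 (p_adj = 0.00974), 0.54 for Ucp2 (p_adj = 0.00223), 0.88 for Ucp3 (p_adj = 0.0014), -0.57 for Cd36 (p_adj = 0.00292), and -0.41 for Fabp3 (p_adj = 0.0326). Both comparisons share the 10 Hz libraries. The calls of Cpt1a and Fabp3 were the least firm, each lost under 11 of 21 alternatives. Both ended without any of 1 Hz replicates 4 and 6 and 10 Hz replicates 1, 2, 4, and 6, where p_adj was 0.0651 to 0.114 for Cpt1a and 0.0556 to 0.161 for Fabp3, with no filter on low counts (0.0943 and 0.0922), and with only the 2 groups compared (0.0781 and 0.0915). Fabp3 was -0.25 without 1 Hz replicate 4. On log2(TPM + 1) the calls of Cd36 (-0.19, p_adj = 0.249) and Fabp3 (-0.16, p_adj = 0.343) also ended.

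Without the 4 libraries of a high mitochondrial share, a check chosen after seeing the data, the calls of Angptl4 (-0.65 and -1.17), Ucp2 (-0.27 and -0.49), and Ucp3 (-1.26 and -0.86) held at 1 and 4 Hz. Ucp2 at 1 Hz was then close to the threshold (p_adj = 0.0439). Cpt1a (-0.59) and Cd36 (0.32, p_adj = 0.0254) held at 4 Hz, while Acadm did not pass (0.13, p_adj = 0.0975). Fabp3 was then lower at 1 Hz (-0.30, p_adj = 0.0397), and between 10 and 1 Hz Cpt1a (0.21, p_adj = 0.304) and Fabp3 (-0.11, p_adj = 0.52) did not pass.

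Among libraries of the same group, some of the 10 genes varied together and others in opposite directions. With group means subtracted from log2 CPM, Cpt1a ran against Cd36 (Pearson r = -0.745, permutation p = 0.00039, adjusted over 45 pairs 0.00877, over 24 libraries) and against Fabp3 (r = -0.713, permutation p = 0.00199, adjusted 0.0224). Cpt1a ran with Angptl4 (r = 0.654, permutation p = 0.00036, adjusted 0.00877) and Cpt2 with Hadha (r = 0.631, permutation p = 0.00074, adjusted 0.0111). Spearman rho was -0.666, -0.657, 0.665, and 0.622 for these 4 pairs (permutation p = 0.0019, 0.00272, 0.00068, and 0.00214, each adjusted to 0.0306). Without the 2 libraries farthest from the median of the gene named first, r was -0.661, -0.536, 0.699, and 0.527.

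Cd36 and Fabp3 also varied together, with r = 0.670 (permutation p = 0.0039, adjusted 0.0351), but a rho of 0.572 (permutation p = 0.0127) was 0.114 after adjustment. The mitochondrial share of a library ran against Ucp2 (r = -0.642, permutation p = 0.00172, adjusted over 30 relations 0.0258, and rho = -0.653, permutation p = 0.0031, adjusted 0.0465, with r = -0.636 without 2 libraries). Genes of a library share its depth and its scaling, and the part of these in the correlations was not tested.

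**Figure D3:**
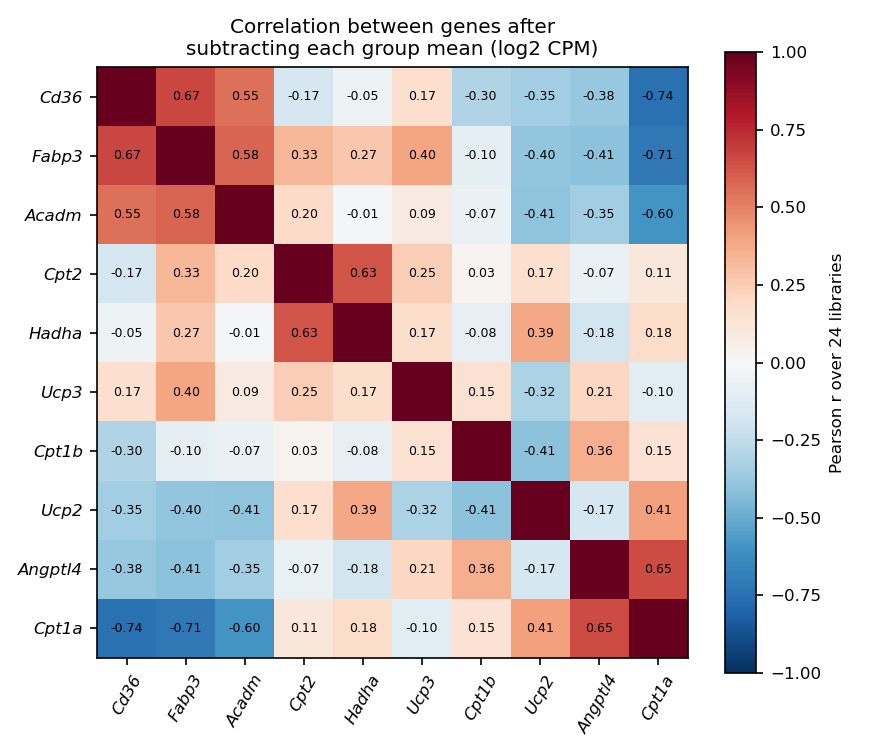
Pearson r between each pair of the 10 genes over 24 libraries after subtraction of the group means from log2 CPM (red above 0, blue below 0). Cpt1a shows -0.745 with Cd36 and -0.713 with Fabp3, and 0.654 with Angptl4, while Cpt2 and Hadha form a pair of their own at 0.631.

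The wider pathway was read from 58 other genes in 6 lists, and 51 of them were tested. At 1 Hz 14 were higher and 5 lower, 37.3% of those tested, and at 4 Hz 19 were higher and 3 lower, 43.1%. Of all genes tested, 19.2% were higher and 18.1% lower at 1 Hz, and 27.5% and 23.9% at 4 Hz. The 15 genes called at both frequencies had the same direction, and both comparisons share the controls. The balance turned on the TPM scale, where limma called 3 higher (Lpl, Echs1, and Acot13) and 8 lower at 1 Hz and 2 higher (Echs1 and Acot13) and 14 lower at 4 Hz. The balance of all genes turned the same way there, to 3.58% higher and 21.9% lower at 1 Hz and 5.83% and 35.9% at 4 Hz. At 10 Hz edgeR called 0 of 51, and 5 had an unadjusted p under 0.05 (Acsl1, Abhd5, Crat, Acacb, and Pdk4), against 8.07% of all genes.

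In the list of mitochondrial beta-oxidation and electron transfer, 4 of 13 genes were higher at 1 Hz and 6 at 4 Hz, and 0 were lower. The 4 were Acadvl, Hadh, Echs1, and Eci2, each of them also among the 6. The list had a median of 0.17 at 1 Hz and 0.24 at 4 Hz on the log2 scale of edgeR. Of all genes tested there, 19.2% and 27.5% were higher and 18.1% and 23.9% lower at 1 and 4 Hz. In limma on log2(TPM + 1), Echs1 alone of the list was higher, at 1 Hz (0.23, p_adj = 0.0399) and 4 Hz (0.32, p_adj = 0.00333). On that scale Acadl (-0.26, p_adj = 0.0112) and Etfdh (-0.34, p_adj = 0.00739) were lower at 4 Hz. Hadh, the short-chain hydroxyacyl-CoA dehydrogenase, was 0.27 (p_adj = 0.00205) at 1 Hz and 0.32 (p_adj = 2.16e-04) at 4 Hz, with each library above every control. On log2(TPM + 1) it was 0.05 and -0.01 and did not pass. Echs1, the short-chain enoyl-CoA hydratase, was 0.65 at 4 Hz (p_adj = 7.82e-05), again with 6 of 6 libraries above every control.

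Uptake, binding, and activation genes moved in both directions, with 3 higher and 1 lower of 10 tested at 1 Hz and 4 higher and 2 lower at 4 Hz. Lpl, Acsl3, and the fatty acid binding protein gene Fabp5 were higher at both frequencies, and Acsl6 joined them at 4 Hz. Lpl, the lipase that ANGPTL4 inhibits, rose at 1 Hz, by a log2(fold change) of 0.75 (p_adj = 5.37e-05), and Acsl3, an acyl-CoA synthetase of lipid droplets, by 0.46 (p_adj = 2.32e-04) at 1 Hz and 0.53 (p_adj = 2.36e-05) at 4 Hz. On log2(TPM + 1) Acsl3 was 0.23 (p_adj = 0.161) and 0.25 (p_adj = 0.0911) and did not pass. Slc27a4, a fatty acid transport protein with acyl-CoA synthetase activity, fell by 0.61 (p_adj = 2.31e-07) and 0.68 (p_adj = 2.15e-08), below every control in each library of both frequencies. Acsl4, an arachidonate-preferring acyl-CoA synthetase, fell by 0.25 at 4 Hz (p_adj = 0.024), a call that ended without 4 Hz replicate 1 (p_adj = 0.0503).

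In the list of lipid droplet storage and lipolysis, 3 of 10 tested genes were higher and 2 lower at 1 Hz, and 4 higher and 1 lower at 4 Hz. Higher were Plin3, Plin4, and Lipe at 1 Hz and Plin3, Lipe, Mgll, and Dgat1 at 4 Hz. Plin2, the common coat protein of lipid droplets and a PPAR target, fell by 0.36 (p_adj = 3.54e-04) and 0.37 (p_adj = 1.41e-04) with each library below every control, while the related coat Plin3 rose by 0.29 at 1 Hz (p_adj = 0.00239) but was 0.05 on log2(TPM + 1) (p_adj = 0.781). G0s2, an inhibitor of the lipase ATGL, fell by 0.81 at 1 Hz (SE 0.278, p_adj = 0.0265), a call that ended without control replicate 1 (p_adj = 0.0503) or 1 Hz replicate 3 (p_adj = 0.053), or with no filter on low counts (p_adj = 0.0546).

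The carnitine shuttle and malonyl-CoA list had 0 higher and 2 lower of 5 genes at 1 Hz and none called at 4 Hz. The 2 were Crat, carnitine acetyltransferase, at -0.30 (p_adj = 0.00916), and Acacb, which makes the malonyl-CoA that blocks CPT1, at -0.34 (p_adj = 0.0372). Of 7 genes of peroxisomal oxidation and thioesterases, 2 were higher at each frequency, Acaa1a and the thioesterase Acot13, the latter at 0.86 at 4 Hz (p_adj = 1.36e-04). Of 6 regulators and other PPAR targets, 2 were higher at 1 Hz (Pparg and Pdk4) and 3 at 4 Hz, and 0 were lower. The 3 were Pparg, the adipogenic PPAR (0.55, p_adj = 0.00263), its coactivator Ppargc1a (0.50, p_adj = 0.00661), and Pdk4, the kinase that turns off pyruvate dehydrogenase (0.27, p_adj = 0.0203), and these, like Acacb and the genes named without a value in the lists above, were singled out after their values were seen. In limma on log2(TPM + 1) at 4 Hz, Pparg (0.17, p_adj = 0.405), Ppargc1a (0.14, p_adj = 0.534), and Pdk4 (-0.04, p_adj = 0.818) did not pass. Ppara did not pass the filter on low counts.

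At 10 Hz the smallest p values of the 51 genes were those of Pdk4, at -0.45 (SE 0.0974, p_adj = 0.0925), and Acacb, at -0.43 (SE 0.127, p_adj = 0.234), both below every control in 5 of 6 libraries. Pdk4 passed under 6 of 22 alternatives. Among them were leaving out control replicate 5 (-0.50, p_adj = 0.0448), DESeq2 (-0.45, p_adj = 0.00513), and edgeR with only the 2 groups compared (-0.45, p_adj = 0.0358). Between 10 and 4 Hz, 9 of the 13 beta-oxidation genes were lower at 10 Hz and 0 higher in edgeR, against 24.4% and 21.9% of all genes. The list median was -0.31 against -0.05 for all genes tested. The list was not counted on TPM for this comparison, where the order was mixed. Differences from control on log2(TPM + 1) at 4 and 10 Hz were -0.26 and -0.12 for Acadl, -0.34 and -0.13 for Etfdh, and 0.32 and 0.08 for Echs1.

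**Figure D4:**
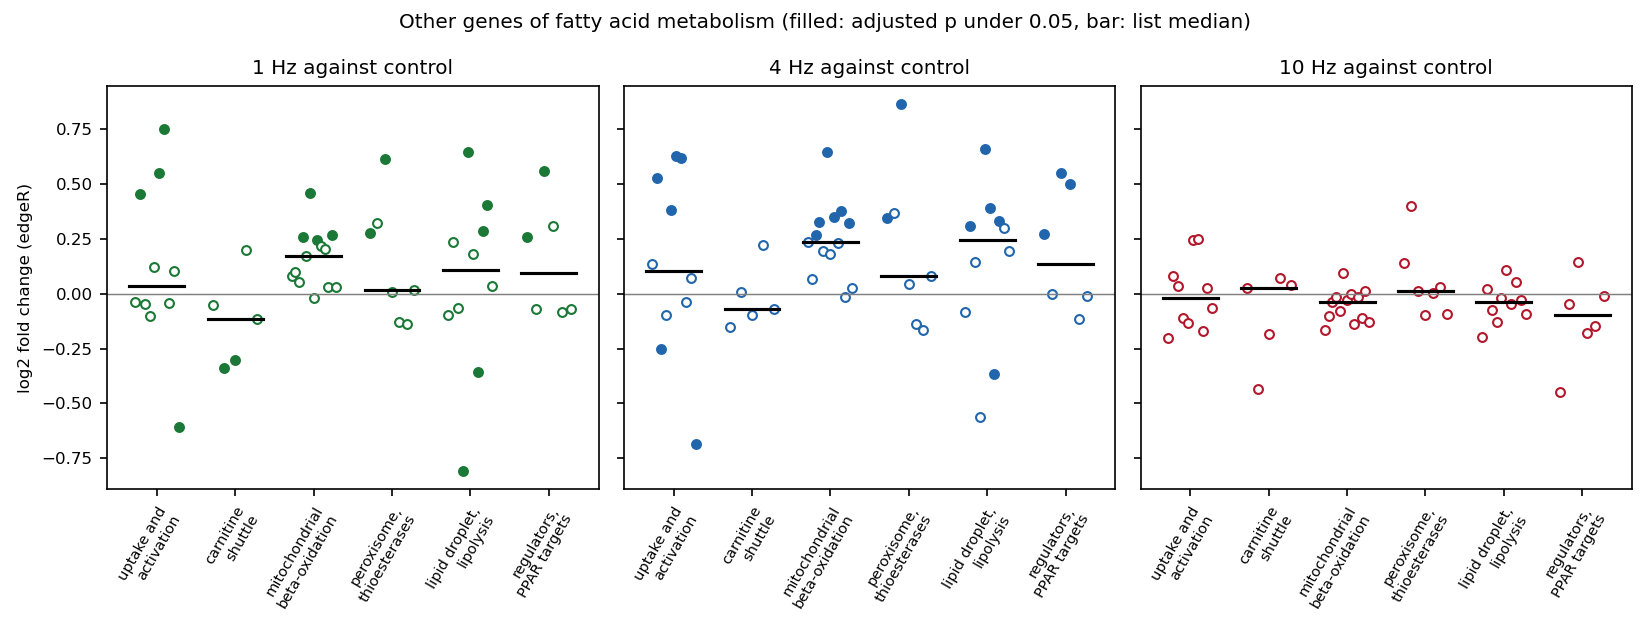
log2(fold change) in edgeR of the 51 tested pathway genes in 6 lists (x axis) at 1, 4, and 10 Hz (panels). Each point is a gene, filled where p_adj was under 0.05, and black bars are list medians. The beta-oxidation list has a median of 0.17, 0.24, and -0.04 at 1, 4, and 10 Hz.

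The genes outside the 10 whose pattern over the 24 libraries was most like that of Ucp3 were 9930104L06Rik (Pearson r of log2 CPM 0.871), Rrp36 (0.870), and Eif2b4 (0.857), which rank first as a description and without a test. Exons of 6 of the 10 genes overlap an exon on the opposite strand, namely Cpt1a, Cpt2, Fabp3, Ucp2, Ucp3, and Hadha, and the sources used here do not give the strand setting of the counting. Their counts may hold reads of these neighbours, as may those of 10 of the 13 other pathway genes named by a rule.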

How the data were processed

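RNA of 24 C2C12 cultures was measured by RNA sequencing, with 6 libraries in each of 4 groups taken from the sample labels. The authors mapped reads with the nf-core/rnaseq pipeline to GRCm39, and their processing notes also list BWA 0.7.12-r1039, bedtools 2.25.0, STAR, and Salmon. The deposited estimated counts per gene are those of salmon, neither normalized nor filtered, and 6.15% were not whole (off by more than 0.001). The deposited TPM values are scaled by transcript length and add up to 1000000 in a library.

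Here, estimated counts were rounded, and edgeR 4.0.16 in R 4.3.3 (filterByExpr with a minimum count of 10 and a minimum total of 15, TMM, robust quasi-likelihood test, 1 fit of 24 libraries with group means) compared the groups with Benjamini-Hochberg adjustment over 13315 genes. Shares of summed TPM were compared by exact permutation tests. Correlations used log2 CPM (prior count 2) after subtraction of group means, with 100000 permutations within groups. The edgeR and limma fits were also run on simulated counts in which few genes changed. Those counts had no shift by length and no wide change, unlike the data, so they do not test the fits for such shifts. Positions and overlaps are from GENCODE M39, which held 98.9% of the gene identifiers, and promoter sequences are from RefSeq.

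The 10 genes, the 6 pathway lists, and the marker lists were chosen with earlier results of these data known. The other pathway genes named are, at each frequency against control, up to 4 per direction with the smallest p among those called, or the 2 with the smallest p where none was called. The nearest patterns are given for the called gene with the smallest p_adj against control and for that with the largest fold change, which were both Ucp3. Alternatives were size factors of DESeq2 (RLE), the filter left out or raised to 50 counts in 6 libraries, a fit of the 2 groups alone, the replicate number as a block, DESeq2 1.42.0 with and without apeglm 1.24.0, limma 3.58.1 with genes at 1 TPM in 6 libraries on log2(TPM + 1) or log2(TPM + 0.1), a threshold of 0.5 on log2(fold change), and each library left out. Leaving out the 4 libraries with over 3% mitochondrial counts was chosen after seeing the data. Libraries with the same number in different groups did not deviate together. Over 36 such pairs, the mean correlation of their deviations was -0.02 (-0.33 to 0.24), against 0.00457 over 180 pairs with different numbers.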

Additional observations from a re-analysis of the deposited data

Results flagged for a closer look

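Within the 6 libraries of a group, a library was singled out when its gap to the nearest other library exceeded Dixon's 95% critical share of the whole range, which chance alone gives in about 1 of 20 groups. Of 48 groups tested (the 10 genes and the shares of Cpt1a and Ucp2), 2 met this. Cpt1b in 1 Hz replicate 2 was at 0 CPM while the other libraries at 1 Hz had 1.44 to 2.15, a gap of 0.67 of the range. Ucp2 in 10 Hz replicate 3 was at 44.5 CPM while the others at 10 Hz had 31.5 to 36.2, a gap of 0.633 of the range.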

How the results depend on the processing

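Calls of Angptl4, Ucp2, and Ucp3 at 1 and 4 Hz and of Cpt1a at 4 Hz passed at p_adj under 0.05 under the 22 alternatives run for each, while Cd36 at 4 Hz was lost on both TPM scales and Acadm at 4 Hz under 10 of 22. A threshold of 0.5 on log2(fold change), counted apart from these, removed Ucp2 at 1 Hz (-0.44) and Cd36 (0.49) and Acadm (0.21) at 4 Hz. The cause of the changes below was not tested. The number of the 10 genes called at 1 Hz went from 3 to 5 with the strict filter, and it was 3 to 5 when a library was left out (5 without 1 Hz replicate 1 or 1 Hz replicate 3). Of all genes at 1 Hz, 2241 were higher and 2343 lower of 10799 with the strict filter, against 2554 and 2408 of 13315. At 10 Hz the number of the 10 genes called went from 0 to 1 (Fabp3) with only the 2 groups compared. That fit called 16 of 12867 genes higher and 42 lower, against 2 and 3 of 13315 in the main fit. Between 10 and 1 Hz the number of the 10 genes went from 6 to 3 on log2(TPM + 0.1), and between 4 and 1 Hz from 0 to 1 without the 4 libraries of high mitochondrial share. With the strict filter, and on both TPM scales, 7 of the 10 passed between 10 and 4 Hz. The share of all genes called between frequencies was not computed under these settings. Such counts are therefore not a result about the 10 genes. Of the pathway genes, 19 were called at 1 Hz, and 11 on log2(TPM + 1) as on log2(TPM + 0.1), and at 10 Hz 0 were called, and 1 (Pdk4) without a filter, with only the 2 groups compared, in DESeq2 with or without apeglm, and without the 4 libraries, with 0 to 1 when a library was left out.

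Values near 0 changed sign. Cpt1b at 1 Hz (0.01) was -0.0037 with RLE, -0.0267 without a filter, -0.017 in DESeq2, -0.00234 with apeglm, -0.111 and -0.534 on log2(TPM + 1) and log2(TPM + 0.1), and -0.107 without the 4 libraries. Fabp3 at 1 Hz (0.00) was -0.0115, -0.0311, -0.019, -0.0133, -0.266, -0.268, and -0.298 in the same order, and -0.0061 with the strict filter. On log2(TPM + 1) and log2(TPM + 0.1), Cd36 at 1 Hz was -0.0323 and -0.034, Acadm -0.0968 and -0.0983 at 1 Hz and -0.0214 and -0.0219 at 10 Hz, Fabp3 at 4 Hz -0.0914 and -0.0921, and Hadh at 4 Hz -0.00912 and -0.00945. When a library was left out, ranges that crossed 0 were -0.112 to 0.257 for Cpt1b, -0.105 to 0.00258 for Cpt2, and -0.172 to 0.0836 for Fabp3 at 1 Hz, -0.275 to 0.0115 for Cpt1b at 4 Hz, and -0.0199 to 0.167 for Cpt1a, -0.057 to 0.0284 for Cpt2, -0.163 to 0.0105 for Angptl4, and -0.000382 to 0.0448 for Acadm at 10 Hz. The difference in the share of Ucp2 at 4 Hz, -0.28 percentage points, was 1.97 with shares of estimated counts, 0.236 without the 4 libraries, and -1.1 to 0.25 when a library was left out.

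With the replicate number as a block, 3, 6, and 0 of the 10 genes were called at 1, 4, and 10 Hz as without it, 6 between 10 and 4 Hz, and 5 in place of 6 between 10 and 1 Hz, where Cpt1a had a p_adj of 0.0502. Cpt1b and Fabp3 at 1 Hz were then -0.0457 and -0.0265. The block moved the pathway genes called at 1 Hz from 19 to 17 and left 22 at 4 Hz. Of the 10 genes, counts were lowest for Cpt1b, where 3 libraries held no count, and for Ucp3, with 14 to 85 counts in a library. The part of depth in this was not tested.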
